A study of Homo sapiens with 4 samples.

Results

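The cells described here are ectoderm cells rich in mitochondrial RNA. They are the 921 of 16360 cells of the ectoderm library (5.63%) in which 6% to 20% of the UMIs came from genes of the mitochondrial genome, whose symbols start with MT-; a UMI, a unique molecular identifier, stands for 1 captured RNA molecule. They are called high-MT cells below. They were set against the 2128 ectoderm cells with 2.0% to 2.5% of such UMIs, called comparison cells. The cells were chosen by this measured share, so every difference in MT- genes is a description of that choice and not a finding.

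The study used human pluripotent stem cells (hPSC) labelled as the H9 line. They received a lentivirus with Cas9 and mCherry and a second lentivirus pool with guide RNAs, EGFP and guide barcodes. After a sort on fluorescence and 1 week of recovery, cells were induced towards ectoderm. The samples were an ectoderm transcriptome, a transcriptome of hPSC that carried another guide pool, and 1 amplicon library for each that ties cells to guides. All groups share the Cas9 and guide viruses, none is an untreated control, and every value below is from 1 library per state. Each library is therefore a mixture of cells with guides against different genes, and a cell counts here whatever guide it carries. Whether the targets were edited was not checked here. Of the 2 transcriptomes checked against the labelled line by expression, 2 went against the label. The libraries held 91249888 UMIs (ectoderm) and 83263830 UMIs (hPSC), over 31693 cells in all, and 78 cell barcodes occurred in both.

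The mitochondrial genome encodes core subunits of respiratory complexes I, III and IV and of ATP synthase, plus the ribosomal and transfer RNAs of the mitochondrial ribosome. It is transcribed from both strands as long precursors that are cut into separate RNAs, most of which receive a poly(A) tail. All other subunits, and every factor that copies, transcribes and translates mitochondrial DNA, are made from nuclear genes. Pluripotent cells are known for strong glycolysis, and respiration gains in weight as they differentiate. In single-cell work a high mitochondrial share is also often used to mark damaged cells, which lose cytoplasmic RNA.

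Most high-MT cells lay close to the lower bound. Their share reached 15.3% with a median of 6.77%, against a median of 2.26% in comparison cells. Of the 921 cells, 735 had 6% to 8%, 142 had 8% to 10% and 44 had 10% to 20%; no ectoderm cell lay above 20%. The lowest share inside the bound was 6.0031% and the highest outside it 5.9993%, so the bound cuts a continuous distribution. The 338 cells at 6% to 6.5% had a median of 239.5 MT- UMIs and 3578 other UMIs, and the 496 cells at 5.5% to 6% had 232 and 3798. The same bounds held 2528 of 15333 hPSC cells (16.5%), which were used with the 1000 hPSC cells at 2.0% to 2.5% to look at the same contrast in a second library.

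High-MT cells had more mitochondrial and fewer other UMIs. They held a median of 255 MT- UMIs (quartiles 201 and 333), against 112 (quartiles 76 and 183) in comparison cells. Their other UMIs had a median of 3274 (quartiles 2555 and 4303), against 4777 (quartiles 3282.75 and 7885.5). The share has all UMIs as its denominator, so both directions follow in part from the choice of the cells. In hPSC the MT- medians were 335 in high-MT cells and 106 in comparison cells, while the other UMIs were closer, with 4309 and 4570. High-MT ectoderm cells also showed fewer genes, with a median of 1582 against 2065. After each cell was thinned to 2000 UMIs without MT- genes, which left out 30 high-MT cells and 0 comparison cells, the medians were 1098 and 1083 genes. At equal depth, high-MT cells thus held no fewer genes. The matrix held no ectoderm cell below 2071 UMIs, so shallower cells were not analysed here.

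**Figure D1:**
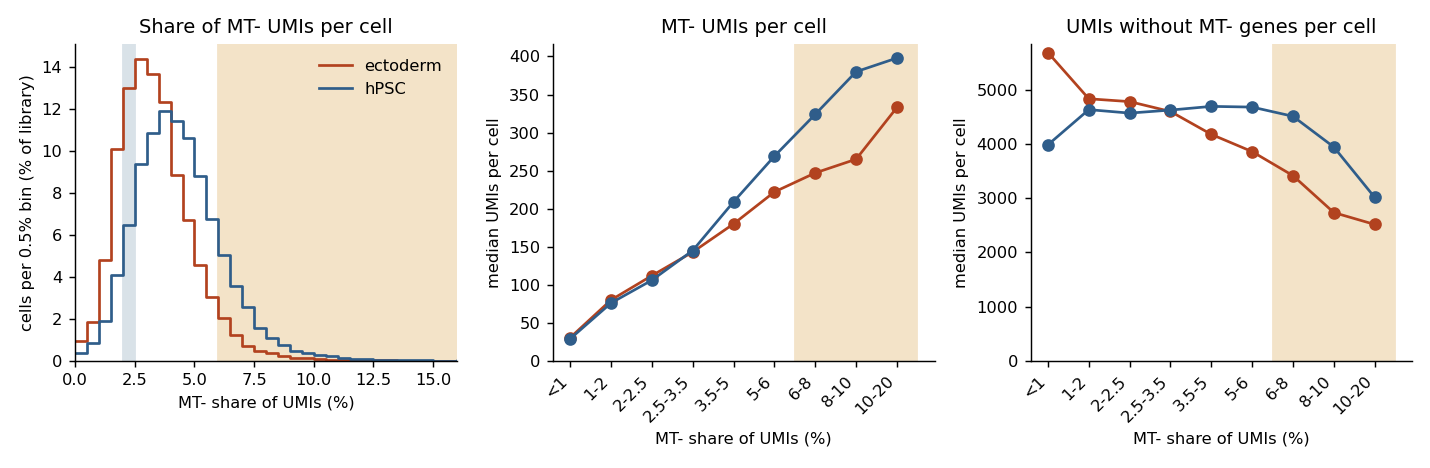
Left, cells per bin of 0.5% of the share of UMIs from MT- genes, as a percentage of each library (bins above 16% not drawn; ectoderm red, hPSC blue; the tan area holds high-MT cells and the blue-grey area comparison cells). Centre and right, the median MT- UMIs and the median other UMIs per cell in bands of that share (tan, 6% to 20%). In ectoderm the median of other UMIs was 2516 in the highest band and 5686.5 in the lowest.

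Of the 15 mitochondrially encoded messenger and ribosomal RNAs on the list, 14 reached 5 CPM. CPM are UMIs per 1000000 UMIs counted without MT- genes, summed over the cells of a set; all ratios below are log2 of high-MT over comparison cells, and intervals are 95% intervals that cover counting error only. The sum of all MT- genes was 76369 CPM in high-MT cells and 23059 CPM in comparison cells, a log2 ratio of 1.73. MT-CO1, a catalytic subunit of complex IV and a marker of the choice, had 9775 and 3437 CPM, a ratio of 1.51. MT-ND4, a complex I subunit and the other marker, had 4759 and 1338 CPM, a ratio of 1.83. The label therefore fits the markers, by construction.

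The make-up within the mitochondrial sum was not the same in both sets. MT-ATP6, the proton channel subunit of ATP synthase, had 5408 CPM in high-MT cells and 1195 CPM in comparison cells, the highest ratio of the 14 at 2.18 (2.15 to 2.21). It supplied 7.08% of MT- UMIs in high-MT cells and 5.18% in comparison cells. The complex IV subunits stood at the other end. MT-CO1 supplied 12.8% and 14.9%, and MT-CO2, the subunit that takes electrons from cytochrome c, 22.5% and 25.2%. MT-CO3, which lies directly behind MT-ATP6 on the mitochondrial genome, did not follow them, with 29.4% and 28.2%. MT-CYB, the cytochrome b of complex III, supplied 7.91% and 7.51%.

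Complex I subunits had a joint ratio of 1.81, between 1.64 for MT-ND3 and 1.99 for MT-ND1. The small and the large ribosomal RNA, MT-RNR1 and MT-RNR2, had ratios of 1.84 and 1.87. In hPSC the same contrast gave 2.38 for MT-ATP6, 1.53 for MT-CO2, 1.94 for MT-CO3 and 1.96 for MT-CYB. The ribosomal RNAs were lower there, with 1.44 for MT-RNR1 and 1.57 for MT-RNR2. They stood at 1.60 and 1.63 in ectoderm cells with 3000 to 6000 other UMIs, and at 1.30 and 1.51 in such hPSC. MT-ND4L, a small complex I subunit with few UMIs, was at 1.88 in ectoderm and 1.38 in hPSC. The differences between the libraries were not tested. Transfer RNA features had 48 UMIs in high-MT ectoderm cells and 143 in comparison cells, 13.6 and 11.2 CPM, which is little to read a make-up from. MT-ATP8 was under 5 CPM in ectoderm, with 16 and 15 UMIs.

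**Figure D2:**
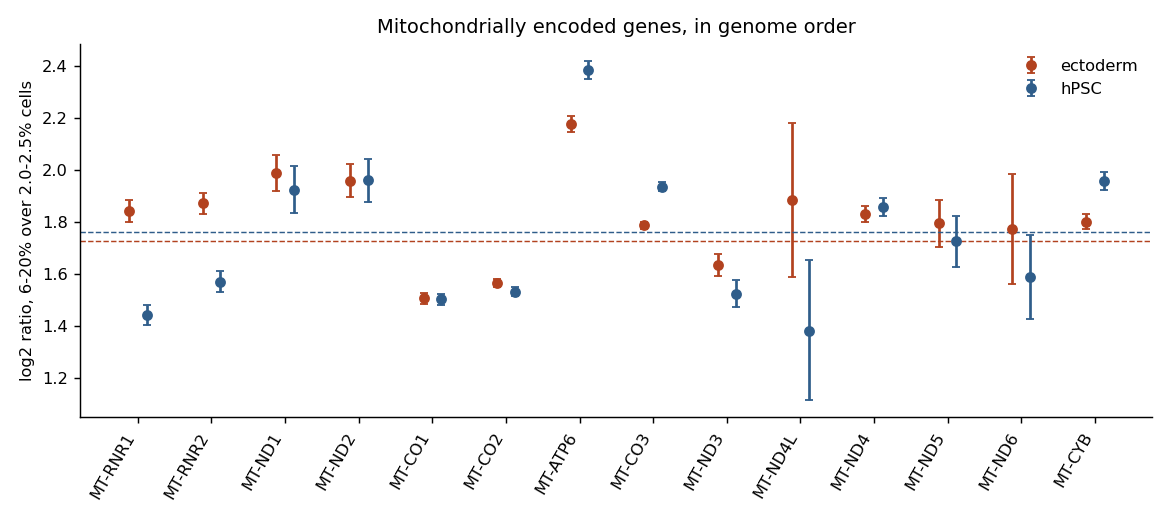
Log2 ratio of CPM, high-MT (6-20%) over comparison (2.0-2.5%) cells, for 14 mitochondrially encoded genes in the order of the mitochondrial genome; points are ectoderm (red) and hPSC (blue), bars are 95% counting intervals, and dashed lines give the sum of all MT- genes (1.73 and 1.76). MT-ATP6 lies highest and MT-CO1 and MT-CO2 lie under the dashed line in both libraries.

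The balance between MT-ATP6 and MT-CO1 in ectoderm differed mostly across the shares below the bound of 6%. In ectoderm there were 0.288 MT-ATP6 UMIs per MT-CO1 UMI below a share of 1%, 0.348 at 2% to 2.5%, 0.483 at 3.5% to 5% and 0.531 at 5% to 6%. Within the high-MT cells the ratio was nearly flat, with 0.551 at 6% to 8%, 0.553 at 8% to 10% and 0.586 at 10% to 20%. In hPSC it was 0.754 at 8% to 10% and 0.677 at 10% to 20%. Set against comparison cells, the ectoderm ratio was 1.59 times as high, and 1.32 times as high against cells with 3.0% to 3.5%. Among cells with 3000 to 6000 other UMIs (427 high-MT and 886 comparison cells) it was 1.55 times as high, so it was about as large where depth was close. MT-CO3 per MT-CO2 UMI took a similar course, with 1.37 in the highest and 1.08 in the lowest ectoderm band.

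**Figure D3:**
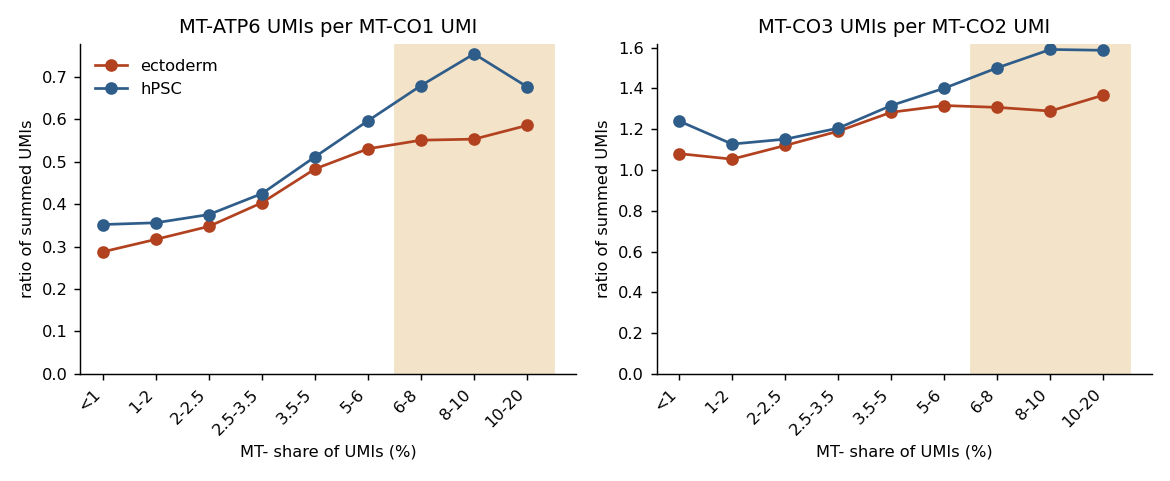
MT-ATP6 UMIs per MT-CO1 UMI (left) and MT-CO3 UMIs per MT-CO2 UMI (right), from summed UMIs, in bands of the share of UMIs from MT- genes; ectoderm red, hPSC blue, high-MT bands in tan. MT-ATP6 per MT-CO1 is 0.586 in the highest and 0.288 in the lowest ectoderm band.

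A nuclear copy of MT-ATP6 was higher as well. MTATP6P1 is an unprocessed pseudogene on chromosome 1 (GRCh38, chr1:633696-634376, plus strand), a piece of mitochondrial DNA that was copied into the nuclear genome; MT-ATP6 lies at chrM:8527-9207. The 681 bases of both are 98.53% identical, with 10 differences. The last 60 bases, next to which a 3' library reads, are shown because they hold just 1 of these differences, in capitals (C642T, MT-ATP6 base first, counted from 1 at the 5' end of the gene).

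MT-ATP6: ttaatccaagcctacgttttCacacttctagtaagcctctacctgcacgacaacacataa
MTATP6P1: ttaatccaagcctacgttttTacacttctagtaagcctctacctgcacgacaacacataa

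MTATP6P1 had 798.6 CPM in high-MT cells (2820 UMIs) and 187.2 CPM in comparison cells (2391 UMIs), a ratio of 2.09 (2.01 to 2.17), close to the 2.18 of MT-ATP6. Its part of the UMIs of both genes was 12.9% in high-MT cells and 13.6% in comparison cells, and in hPSC 15.83% and 15.95%. With so few differing bases, the reads of the copies cannot be surely told apart in these counts, so the pseudogene is reported as uncertain. MT-ATP6 and MTATP6P1 together had 6207 CPM in high-MT cells and 1382 CPM in comparison cells, a ratio of 2.17. MTCO3P12, the copy of MT-CO3 that directly follows on chromosome 1 (chr1:634376-634922), had 8.21 and 1.57 CPM.

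Few nuclear genes differed by much. Of 6150 nuclear genes with at least 20 CPM in at least 1 set, 25 were higher in high-MT cells by 1.5-fold or more (0.407%) and 6 were lower by as much (0.0976%). The median log2 ratio was 0.03, and 95% of these genes lay between -0.30 and 0.42. In hPSC, 49 of 6098 genes were higher (0.804%) and 5 were lower (0.082%). At a floor of 50 CPM, 3 of 3046 ectoderm genes were higher (0.0985%) and 0 were lower (0%). A gene could meet a floor in 1 set alone. Most of the 25 higher genes reached 20 CPM only in high-MT cells, and most of the 6 lower genes only in comparison cells. The floor thus took part in choosing them, and the counts describe the rule. With 1 library there is no replicate check and no test, and cells of a library are not replicates.

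These 3 genes were MTATP6P1, TMEM161B-AS1 and LRRC8A. The last 2 reached 50 CPM only in high-MT cells, so the floor took part in choosing them as higher. TMEM161B-AS1, a long noncoding RNA on chromosome 5 (chr5:88268895-88436685), had 59.2 CPM in high-MT cells and 36.9 CPM in comparison cells, a ratio of 0.68 (0.44 to 0.92). It was 0.37 in hPSC; the strand setting of the counting is not given in the sources used here, so reads of an antisense gene are uncertain. LRRC8A, the essential subunit of the volume-regulated anion channel (chr9:128882112-128918039), had 53.5 and 34.3 CPM, a ratio of 0.64 (0.39 to 0.89), and 0.26 in hPSC. Both directions were thus the same in hPSC, with smaller ratios. In ectoderm cells with 3000 to 6000 other UMIs TMEM161B-AS1 was at 0.70, while LRRC8A was at 0.49 and no longer past 1.5-fold.

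Other genes past 1.5-fold had few UMIs, with a median of 94 per gene in high-MT cells over all 31. Those named next, like genes named below that are not at an end of their list, were chosen after their values were seen. FOXO1, a transcription factor of the insulin pathway, had 29.7 CPM in high-MT cells and 18.2 CPM in comparison cells, with 0.44 in hPSC. ANAPC1, a subunit of the anaphase-promoting complex, had 34.6 and 20.5 CPM, with 0.21 in hPSC. STAT2, a transcription factor of interferon signalling, had 20.4 and 12.3 CPM, with 0.04 in hPSC. At 3000 to 6000 other UMIs the ectoderm ratios were 0.79 for FOXO1, 1.01 for ANAPC1 and 1.28 for STAT2, and 19 of the 31 genes were still past 1.5-fold. Of the 25 higher genes, 14 had 20 CPM or more in hPSC, 13 of these had a ratio above 0 there and 2 reached 1.5-fold, MTATP6P1 and AC015802.6. The 13 include MTATP6P1, reported above as uncertain. Over all 6098 hPSC genes at 20 CPM, 3697 were above 0 and 39.4% were below 0.

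The 6 lower genes included SCCPDH, MORC2, ATF1, TAGLN and CDKN1C. TAGLN, an actin-binding protein of smooth muscle and stress fibres, had 28.0 CPM in high-MT cells and 43.6 CPM in comparison cells, a ratio of -0.64 (-0.96 to -0.33), with -0.55 in hPSC. CDKN1C, a cyclin-dependent kinase inhibitor, had 22.9 and 34.5 CPM, a ratio of -0.59 (-0.95 to -0.24), with -0.40 in hPSC. Both were smaller and had intervals across 0 at 3000 to 6000 other UMIs, with -0.18 for TAGLN and -0.38 for CDKN1C. For MORC2, a chromatin ATPase, the hPSC ratio had the other sign, 0.24. Across 2718 genes at 50 CPM or more in both libraries, without nuclear copies of MT- genes, the ectoderm and hPSC ratios had a Pearson r of 0.564 and a Spearman rho of 0.561, and 1950 had the same sign. This is across genes, which are not independent replicates, within 1 library a state.

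Gene lists were described by the median ratio of their members at 5 CPM or more. A member could meet this floor in 1 set alone. For all 10693 nuclear genes at that floor the median was 0.05, with 40.5% of genes below 0, 375 genes higher by 1.5-fold or more (3.51%) and 119 lower by as much (1.11%). At a floor of 50 CPM, where most subunits of abundant complexes lie, the median was 0.00 and 49.6% were below 0. In hPSC the median over 10634 genes at 5 CPM was 0.08, with 35.7% below 0. Over 3104 hPSC genes at 50 CPM it was 0.01, with 47.7% below 0. Among ectoderm cells with 3000 to 6000 other UMIs the median over nuclear genes at 20 CPM was 0.01.

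The nuclear-encoded respiratory chain did not share the difference of the mitochondrial-encoded one. All 37 nuclear complex I subunits were measured, with a median of -0.06, 8 above and 29 below 0, and none past 1.5-fold. Summed, they had 5731 CPM in high-MT cells and 5954 CPM in comparison cells, while the 7 mitochondrial complex I genes had 10044 and 2871 CPM. The highest ratio of the complex I list was that of NDUFS1, an iron-sulphur subunit, with 43.6 CPM in high-MT cells and 41.3 CPM in comparison cells (0.08, -0.19 to 0.34).

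The other complexes gave like values. Complex IV had a median of -0.06 over 11 subunits, with COX7C at -0.09 and COX8A at 0.05. Complex III had -0.03 over 9 subunits, with the cytochrome c1 gene CYC1 at -0.12 and UQCRQ at 0.08. ATP synthase had -0.04 over 18 subunits, with its inhibitor ATP5IF1 at -0.15 and the ring subunit ATP5MC1 at 0.04. Complex II, which has no mitochondrial gene, had -0.08 over 4, with SDHC at -0.15 and SDHB at 0.09. In hPSC these medians were -0.12 for complex I, -0.09 for complex IV, -0.11 for complex III, -0.10 for ATP synthase and -0.09 for complex II. In ectoderm cells at 8% to 20% the medians of complexes III, IV and II were above 0, with 0.07, 0.02 and 0.11, so their sign depended on the bounds.

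Factors that keep and express the mitochondrial genome were near 0 as a list. Of 37 genes for copying, transcribing and processing mitochondrial nucleic acids, 33 were measured, with a median of 0.04 and none past 1.5-fold. TFAM, which packages mitochondrial DNA and starts its transcription, had 90.6 CPM in high-MT cells and 89.7 CPM in comparison cells. LRPPRC and SLIRP, partners that stabilise mitochondrial messenger RNA, had ratios of 0.07 and 0.03. The list ran between TWNK, the mitochondrial DNA helicase, with 30 and 149 UMIs (-0.46, -1.08 to 0.12), and POLG2, the accessory subunit of the mitochondrial DNA polymerase, with 19.0 and 13.2 CPM (0.53, 0.10 to 0.95). POLG2 was at -0.01 in hPSC.

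Of 77 mitochondrial ribosomal protein genes 73 were measured, with a median of -0.07, 23 above and 50 below 0. They ran between MRPL2 at -0.35 and MRPS36 at 0.18. Protein import had -0.05 over 28 genes, inner membrane carriers and channels 0.02 over 17, mitochondrial chaperones and proteases -0.02 over 16, and dynamics and mitophagy -0.03 over 14. Within the last, BNIP3, a mitophagy receptor and hypoxia target, stood lowest with 197 CPM in high-MT cells and 254 CPM in comparison cells (-0.36, -0.48 to -0.24), and it was -0.34 in hPSC. The tricarboxylic acid cycle had -0.04 over 18 genes with 1 lower past 1.5-fold, IDH3G, with 11.3 and 18.9 CPM. IDH2, the mitochondrial NADP-dependent isocitrate dehydrogenase, was at the other end with 49.3 and 34.1 CPM (0.53, 0.27 to 0.79), but at 0.03 in hPSC.

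Glycolytic genes were lower in part. All 18 were measured, with a median of -0.02, 8 above and 10 below 0 and none past 1.5-fold, but the abundant ones lay below 0. Their median was -0.12, with 2 above and 16 below 0, at 3000 to 6000 other UMIs. Over all cells their sum was 6153 CPM in high-MT cells and 6978 CPM in comparison cells, a ratio of -0.18, and in hPSC 8556 and 10191 CPM, a ratio of -0.25. PGK1, the first ATP-forming enzyme of the pathway, had 373 CPM (1318 UMIs) in high-MT cells and 512 CPM (6532 UMIs) in comparison cells, a ratio of -0.45 (-0.54 to -0.37). LDHA, which turns pyruvate into lactate, had 308 and 417 CPM, a ratio of -0.44 (-0.53 to -0.34).

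The same pair stood lowest in hPSC. PGK1 had 856 CPM in high-MT hPSC and 1190 CPM in comparison hPSC, a ratio of -0.47 (-0.52 to -0.43). LDHA had 829 and 1124 CPM, a ratio of -0.44 (-0.49 to -0.39). At 3000 to 6000 other UMIs the ectoderm ratios were -0.50 for PGK1 and -0.53 for LDHA, so they were as large where depth was close. The promoters of these genes are shown because PGK1 and LDHA lead the list in both libraries and are classic targets of hypoxia-inducible factors, whose core binding motif is ACGTG. Windows are from RefSeq (GRCh38.p14), 250 bases before to 50 after the start, and capitals mark ACGTG on either strand, where CACGTG counts on both: PGK1 is chrX:78103998-78104297 and LDHA is chr11:18394313-18394612, both on the plus strand.

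PGK1: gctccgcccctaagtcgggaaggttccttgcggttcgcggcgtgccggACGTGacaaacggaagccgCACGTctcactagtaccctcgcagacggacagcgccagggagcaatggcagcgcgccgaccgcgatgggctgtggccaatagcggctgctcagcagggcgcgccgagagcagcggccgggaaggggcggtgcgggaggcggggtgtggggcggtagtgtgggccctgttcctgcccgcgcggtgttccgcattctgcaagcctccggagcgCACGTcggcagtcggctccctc
LDHA: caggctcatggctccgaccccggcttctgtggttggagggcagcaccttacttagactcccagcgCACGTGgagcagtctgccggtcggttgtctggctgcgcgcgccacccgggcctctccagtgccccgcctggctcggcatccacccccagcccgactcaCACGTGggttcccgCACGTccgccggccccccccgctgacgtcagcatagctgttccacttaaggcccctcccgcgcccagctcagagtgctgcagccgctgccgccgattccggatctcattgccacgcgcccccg

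PGK1 held 3 matches and LDHA 5. At least 1 match occurs in 21.4% of 35116 promoter windows and at least 3 in 1.98%; 10 of the 17 glycolysis genes with a window had at least 1. A match describes the letters of the window and not a bound site. FAM162A, a hypoxia-linked gene chosen after its value was seen, had 186 CPM in high-MT cells and 230 CPM in comparison cells (-0.31), and -0.48 in hPSC. No list of hypoxia targets was described here, so these picked genes do not stand for such targets as a set. HK2 and ALDOC of the glycolysis list, given below, had ratios above 0.

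TPI1, triose phosphate isomerase, had 913 and 1101 CPM (-0.27, -0.33 to -0.21), with -0.29 in hPSC. GAPDH, glyceraldehyde phosphate dehydrogenase, had 1970 and 2242 CPM (-0.19, -0.22 to -0.15), with -0.31 in hPSC. PKM, the pyruvate kinase gene, had 132 and 170 CPM (-0.36, -0.51 to -0.22), but -0.09 in hPSC. At the upper end stood HK2, a hexokinase, with 19.5 and 17.4 CPM (0.17, -0.24 to 0.56) and ALDOC, an aldolase, with 18.1 and 16.4 CPM (0.15, -0.28 to 0.56), both with intervals across 0. Among cells of 3000 to 6000 other UMIs HK2 was at 0.81 (0.13 to 1.47) and ALDOC at 0.50 (-0.20 to 1.18), from 36 and 31 UMIs in high-MT cells. LDHB, the lactate dehydrogenase subunit that favours pyruvate, had 1024 and 1046 CPM (-0.03). Several of these genes have processed copies in the genome, among which the counting could split reads.

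PGK1 was lower at higher shares on both sides of the bound of 6%. In ectoderm it stood at 519 CPM in both bands under 2%, 491 at 2.5% to 3.5%, 449 at 3.5% to 5%, 425 at 5% to 6%, 377 at 6% to 8%, 363 at 8% to 10% and 327 (231 to 449) at 10% to 20%. Just inside the bound, cells at 6% to 6.5% had 384 CPM, and just outside, cells at 5.5% to 6% had 438 CPM. These values come from 557 and 937 UMIs, and whether the level steps at the bound was not tested. LDHA had 439 CPM at 1% to 2%, 351 at 3.5% to 5% and 301 at 10% to 20%. The summed glycolysis list was 5552 CPM in the highest and 7174 CPM in the lowest ectoderm band, and 8104 and 10070 CPM in hPSC. The median of other UMIs per cell also differed along these bands in ectoderm; its part was not tested beyond the depth range above.

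**Figure D4:**
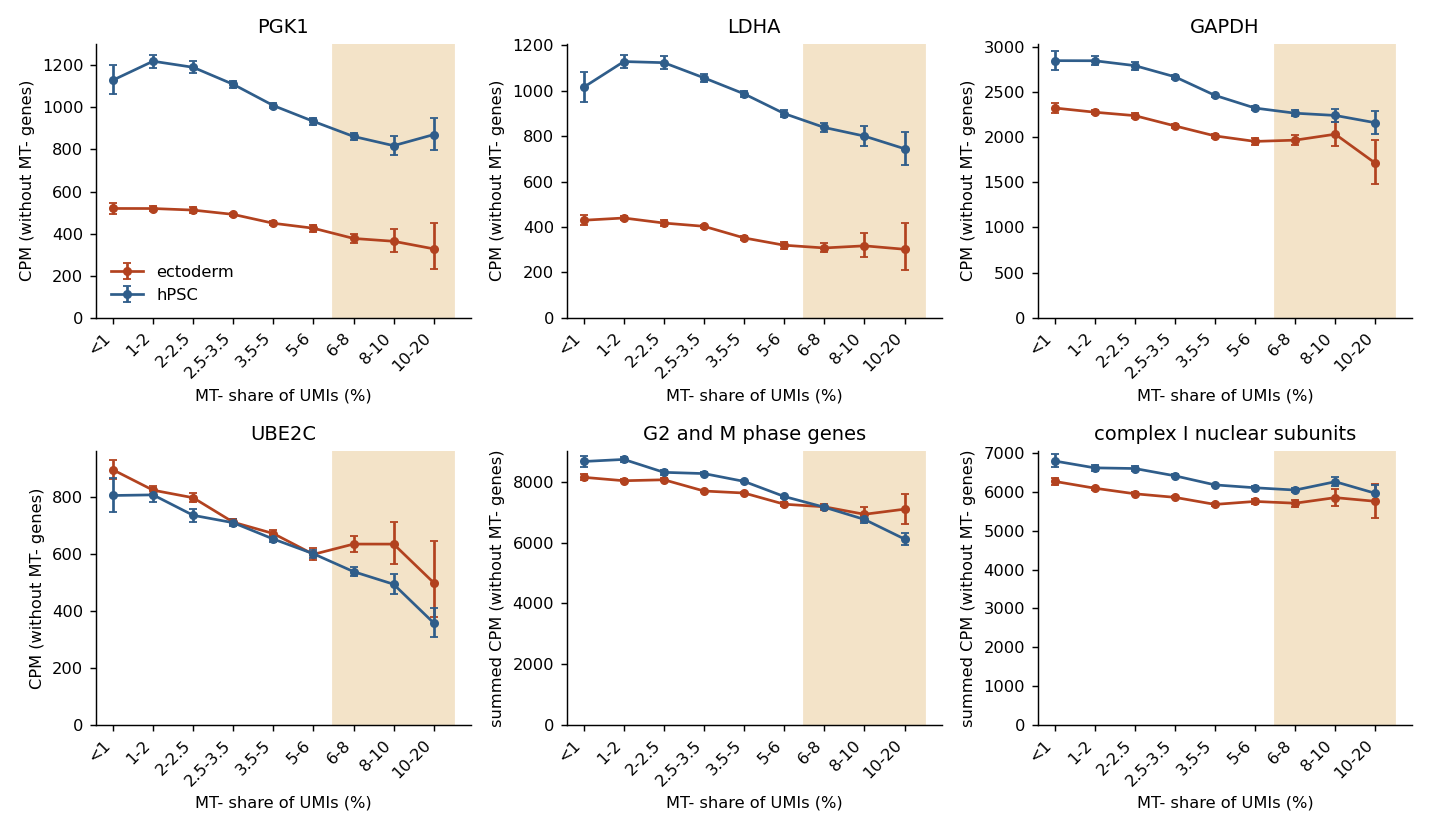
Levels in CPM (counted without MT- genes) in bands of the share of UMIs from MT- genes, for PGK1, LDHA, GAPDH and UBE2C and for the summed G2 and M phase list and the summed nuclear complex I list; ectoderm red, hPSC blue, bars 95% Poisson intervals, high-MT bands in tan. PGK1 is 327 CPM in the highest and 519 CPM in the lowest ectoderm band, and summed complex I 5759 and 6273 CPM.

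Genes of late cell cycle phases were mostly lower. Of 41 genes of G2 and M phase, 5 were above and 36 below 0, with a median of -0.17 and 1 past 1.5-fold, NUSAP1, with 5.10 and 8.06 CPM. NUSAP1 was at 0.03, from 14 and 30 UMIs, at 3000 to 6000 other UMIs, so that call was lost there. Summed, the list had 7153 CPM in high-MT cells and 8077 CPM in comparison cells. UBE2C, the ubiquitin-conjugating enzyme of the anaphase-promoting complex, had 631 and 798 CPM (-0.34, -0.41 to -0.27), and in hPSC 524 and 735 CPM (-0.49). TUBB4B, a beta-tubulin, had 143 and 196 CPM (-0.45, -0.59 to -0.31).

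PLK1, a mitotic kinase, was at -0.37 and CCNB1, the mitotic cyclin B1, at -0.27. ECT2, a cytokinesis factor, and HMMR, a spindle protein, stood at the upper end with 0.14 and 0.09. The hPSC median was -0.19, with 6 above and 35 below 0. At 3000 to 6000 other UMIs the ectoderm median was -0.10, with 10 above and 31 below 0, which is closer to 0 than over all cells. The median of other UMIs per cell was 3788 in high-MT cells and 4064 in comparison cells of that range, and what the remaining gap adds was not tested.

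S phase genes did not share this in ectoderm, with a median of -0.00 over 34 genes and 1 lower past 1.5-fold, CHAF1B, with 11.6 and 18.6 CPM. CHAF1B was at -0.53 (-1.24 to 0.14) at 3000 to 6000 other UMIs, so that call was lost there. MCM4, a subunit of the replicative helicase, had 160 CPM in high-MT cells and 129 CPM in comparison cells (0.31, 0.17 to 0.45), and 0.17 (-0.05 to 0.38) at 3000 to 6000 other UMIs. In hPSC the S phase median was 0.21, with 31 above and 3 below 0. Whether ectoderm and hPSC differ in this was not tested. Replication-linked histone genes had a median of -0.08 in ectoderm and 0.34 in hPSC.

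Among stress genes, targets of p53 were mostly higher. Of 24 targets 21 were measured, with a median of 0.18, 16 above and 5 below 0, and 2 past 1.5-fold. TIGAR, a fructose bisphosphatase that lowers glycolytic flux, had 7.36 CPM (26 UMIs) in high-MT cells and 4.15 CPM (53 UMIs) in comparison cells (0.83, 0.09 to 1.53). It reached 5 CPM only in high-MT cells, so the floor took part in counting it as higher. PHLDA3, an AKT inhibitor, had 17.8 and 11.3 CPM (0.66, 0.21 to 1.10). CDKN1A, the cell cycle inhibitor p21, had 20.4 and 13.9 CPM (0.56, 0.14 to 0.96). MDM2, the ubiquitin ligase for p53, had 61.5 and 50.9 CPM (0.27, 0.04 to 0.50). At 3000 to 6000 other UMIs the list median was 0.14, with 16 above and 7 below 0. CDKN1A stood at 0.76 in that range, while PHLDA3 at 0.21 (-0.49 to 0.88), MDM2 at 0.14 (-0.21 to 0.50) and TIGAR at 0.77 (-0.35 to 1.86) had intervals across 0.

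In hPSC the p53 list had a median of 0.32 with 21 above and 2 below 0, and CDKN1A was at 0.46 and MDM2 at 0.46. SESN1, a sestrin, was lowest in ectoderm at -0.27, and 0.36 in hPSC. Summed, the list had 1316 CPM in high-MT ectoderm cells and 1225 CPM in comparison cells. It was not higher within the high-MT cells, with 1335 CPM at 6% to 8%, 1232 at 8% to 10% and 1162 at 10% to 20%. The median was 0.065 for cells at 8% to 20% and 0.060 against comparison cells at 3.0% to 3.5%, so the value depended on the bounds.

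Over all cells, other stress lists had medians between -0.06 and 0.07. The ATF4 amino acid response, the usual response to mitochondrial stress in human cells, had a median of 0.07 over 26 genes, with 16 above and 10 below 0 and none past 1.5-fold. Its lower end held ATF3, a stress transcription factor, at -0.15 and the serine synthesis enzyme PHGDH at -0.13, and its upper end the cystine carrier SLC7A11 at 0.46 and VLDLR, a lipoprotein receptor, at 0.42. ATF4 itself had 73.9 CPM in high-MT cells and 59.8 CPM in comparison cells (0.31, 0.10 to 0.51). The list median was 0.16, with 18 above and 10 below 0, at 3000 to 6000 other UMIs. SLC7A11 was at 0.65 in that range and at -0.38 for cells at 8% to 20%.

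Heat shock and chaperonin genes had a median of -0.05 over 20 genes, antioxidant genes -0.06 over 19 and chaperones of the endoplasmic reticulum 0.04 over 18. In the range of 3000 to 6000 other UMIs the last was -0.07 and that of apoptosis regulators -0.04. Over all cells apoptosis regulators had 0.04 over 19 with 1 lower past 1.5-fold, BIK, a death-promoting BCL2 family member, with 11.9 and 18.0 CPM. CYCS, cytochrome c, had 312 and 259 CPM (0.27, 0.17 to 0.37). Immediate early genes, which dissociation can induce, had 0.02 over 16, with JUN at 3.96 and 6.97 CPM and IER5 at 15.3 and 8.77 CPM as the pair past 1.5-fold. JUN reached 5 CPM only in comparison cells. At 3000 to 6000 other UMIs JUN was at -1.13 (-2.88 to 0.29), from 5 and 24 UMIs, and IER5 at 1.18 (0.42 to 1.94). Cytoskeletal and small cytoplasmic protein genes had -0.12 over 25, with 4 above and 21 below 0 and TUBB2A and TUBB4B lowest, both at -0.45.

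RNAs that stay in the nucleus were looked at because damaged cells keep them while cytoplasmic RNA is lost. MALAT1, retained in nuclear speckles, had 8927 CPM in high-MT cells and 9554 CPM in comparison cells (-0.10, -0.12 to -0.08). NEAT1, the scaffold of paraspeckles, had 83.0 and 59.0 CPM (0.49, 0.29 to 0.69), and 334 and 202 CPM in hPSC (0.72). At 3000 to 6000 other UMIs MALAT1 was at -0.24 in ectoderm, and NEAT1 at 0.18 (-0.15 to 0.51) in ectoderm and 0.73 in hPSC. Within high-MT cells it was 86.3 CPM at 6% to 8%, 70.1 at 8% to 10% and 51.7 (19.0 to 112) at 10% to 20%. Cells at 6% to 6.5% had 96.4 CPM and cells at 5.5% to 6% had 64.0 CPM. The wider list of 16 long noncoding RNAs had a median of 0.14, with 13 above and 3 below 0. The RNA-stabilising NORAD was lowest at -0.25, and the summed list had a ratio of -0.02. At 3000 to 6000 other UMIs the list median was 0.11, again with 13 above and 3 below 0. In hPSC it was 0.17, with 11 above and 5 below 0. MALAT1 and NEAT1 lay on opposite sides of 0, but most members of the list were above 0.

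**Figure D5:**
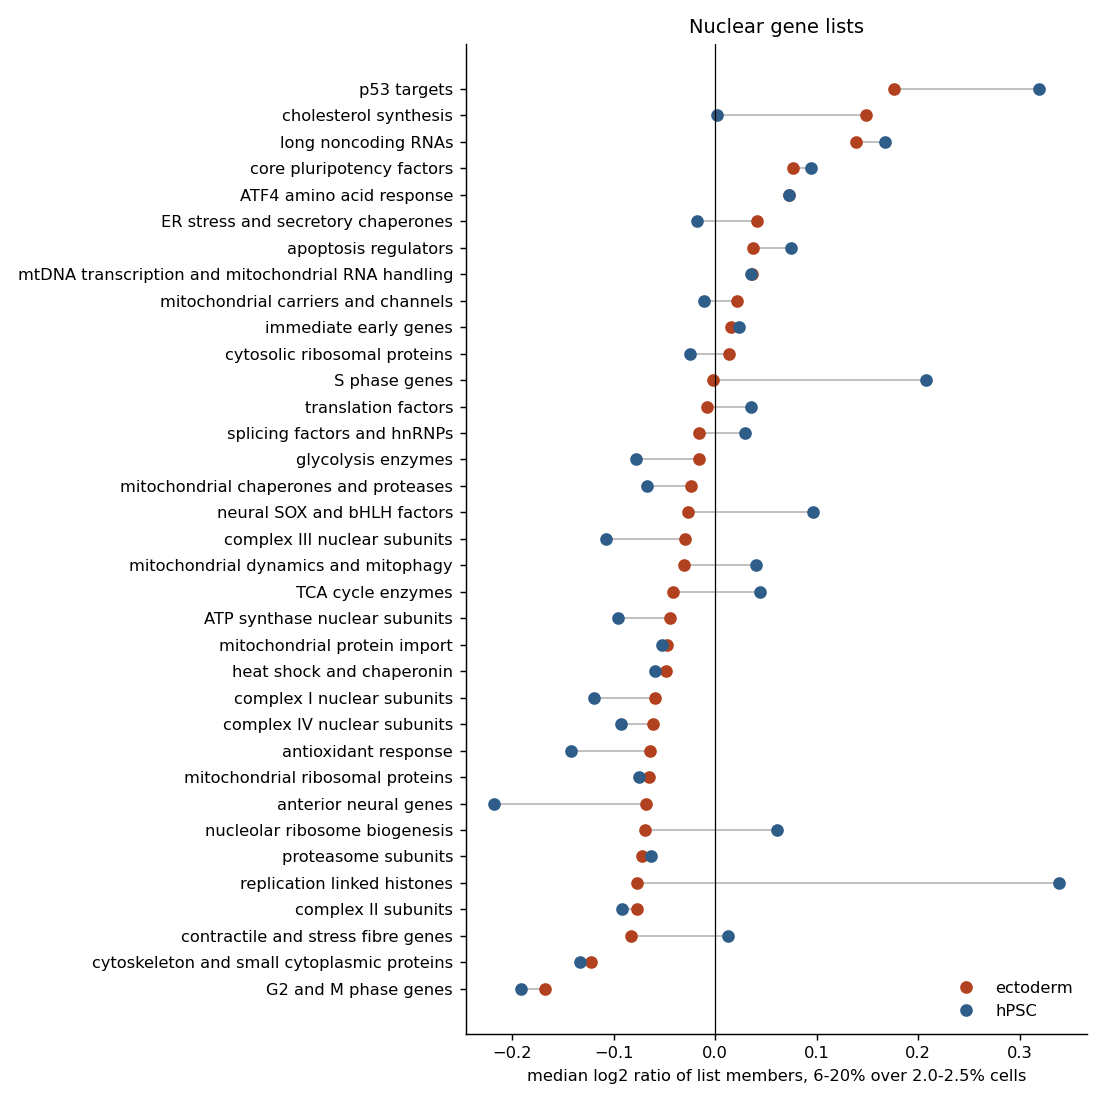
Median log2 ratio of list members at 5 CPM or more, high-MT (6-20%) over comparison (2.0-2.5%) cells, for 35 lists of nuclear genes, in ectoderm (red) and hPSC (blue); the vertical line marks 0. In ectoderm p53 targets lie highest at 0.18 and G2 and M phase genes lowest at -0.17, against a median of 0.05 over all nuclear genes at that floor.

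High-MT cells had the identity genes of the library. Of 10 neural ectoderm progenitor markers 9 were measured and PAX6 was under 5 CPM in both sets; the median was -0.01, and summed they had 1973 CPM in high-MT cells and 1968 CPM in comparison cells. SOX2, a progenitor transcription factor, had 523 and 528 CPM. OTX2, a forebrain transcription factor, had 102 and 107 CPM. SOX1, an early neural plate factor, had 43.0 and 46.3 CPM. The marker sum was 1979 CPM at 6% to 8%, 1926 at 8% to 10% and 2006 at 10% to 20%, and thus held up to the highest shares.

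NES, the intermediate filament nestin, was the lowest of these markers with 61.2 and 76.8 CPM (-0.33, -0.55 to -0.11). FABP7, a fatty acid binding protein of radial glia, was the highest, with 13.9 and 11.9 CPM (0.22, -0.27 to 0.69). Among anterior neural genes SIX6, an eye field transcription factor, had 36.5 CPM (129 UMIs) in high-MT cells and 51.5 CPM (658 UMIs) in comparison cells (-0.50, -0.78 to -0.22), with -0.84 at 3000 to 6000 other UMIs and -0.69 in hPSC. Its relative SIX3 had 435 and 465 CPM (-0.09). ZIC5, a zinc finger factor of the neural plate, stood at the other end with 0.31. SIX6 thus lay apart from the other members below 0, which reached -0.10.

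Pluripotency markers still present in the library had a median of 0.08 over 9 measured genes of 12, and the ratio of their summed levels was 0.05 (0.01 to 0.08). POU5F1, the core pluripotency factor, had 518 and 490 CPM, and NANOG, its partner, had 13.6 and 11.2 CPM. EGFP of the guide virus had 4478 and 4343 CPM. Markers of other cell types were low in both sets. Summed, 9 endoderm markers had 2.27 and 1.49 CPM, with 5 at 0, and 12 endothelial and blood markers 1.70 and 0.70 CPM, with 8 at 0. Mesoderm markers had 11.9 and 11.8 CPM, mesenchyme 25.5 and 24.1, amnion 16.1 and 13.5, neural crest 18.1 and 15.7 and neuron 90.6 and 91.9. Surface ectoderm markers had 648 and 638 CPM, which came mostly from EPCAM and CDH1, epithelial adhesion genes that pluripotent cells also express.

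The guide amplicon was used to ask whether high-MT cells gathered under certain guide targets. A cell was assigned where exactly 1 guide had 20 or more amplicon UMIs, which held for 3686 ectoderm cells. Of these, 188 were high-MT (5.10%, exact binomial interval 4.41% to 5.86%), against 733 of 12674 cells with no assigned guide (5.78%). Cells with several guides also count as not assigned. The assigned cells were deeper, with a median of 5090 other UMIs against 4189.5, and its part in the shares was not tested. Among cells with non-targeting guides, 4 of 159 were high-MT (2.52%, 0.690% to 6.32%), against 184 of 3527 with targeting guides (5.22%). These intervals overlap. Targets with a mitochondrial product had 5.49% of 1366 cells (4.34% to 6.83%) and other targets 5.04% of 2161 cells (4.16% to 6.05%).

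All 28 targets with at least 50 cells had intervals that held the 5.10% of all assigned cells. The highest shares were 6 of 73 cells for GPT2, a mitochondrial alanine transaminase (8.22%, 3.08% to 17.0%), 5 of 64 for LAMB1, a laminin chain (7.81%), and 6 of 81 for MDC1, a mediator of the DNA damage response (7.41%). The lowest were 0 of 50 for GLA, a lysosomal galactosidase, whose interval reached 7.11%, 1 of 73 for TP53I11 (1.37%) and 1 of 59 for GNL2, a nucleolar GTPase (1.69%). Of the 52 targets with fewer than 50 cells, 1 had an interval without the 5.10%, PCK2, the mitochondrial phosphoenolpyruvate carboxykinase, with 5 of 28 cells (17.9%, 6.06% to 36.9%). It was named after the shares were seen, as 1 of 80 intervals, and 1 library holds no replicate of any target.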

How the data were processed

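For 2 transcriptome libraries the authors deposited raw UMI counts of each gene in each cell. The submitters' processing notes name STAR, STARsolo and GRCh38; tool versions, strand handling and annotation are not given in the sources used. The deposited ectoderm amplicon table lists 4340737 reads with cell and guide barcodes and the guide the authors matched; 16 bases of read 1 were taken as the cell barcode and 12 as the UMI. Cells, bounds and gene lists were chosen with earlier results of these data known. UMIs were summed over the cells of each set and scaled to CPM on totals without MT- genes (3531095 in high-MT and 12770784 in comparison cells). Log2 ratios carry exact conditional binomial intervals, levels Poisson and shares Clopper-Pearson intervals, all 95% and for counting error only. With 1 library per state no test was run and no p-value is given. The rule of size was 1.5-fold at 20 CPM in at least 1 set. Doublets were not removed. Named genes are those past 1.5-fold at 50 CPM, up to 12 each way, plus up to 2 from each end of a list, and the 3 highest and 3 lowest guide targets. Depth was examined in cells with 3000 to 6000 UMIs without MT- genes and by thinning to 2000. Gene positions are from GENCODE 29 on GRCh38, which may differ from the authors' annotation. Computation used Python 3.11.15, numpy 2.4.6, scipy 1.17.1, pandas 2.3.3 and matplotlib 3.10.9, and was checked on simulated counts. Alternatives were other bounds, depth ranges, weights, totals, floors, folds and guide minimums. The hPSC amplicon table was not used here. Some genes chosen by these rules are not reported here.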

Additional observations from a re-analysis of the deposited data

How the results depend on the processing

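No paired analysis was possible because each state is 1 library and no result comes from a test. Counts of nuclear genes past the rule depended on the settings. Against 25 higher and 6 lower, there were 454 and 214 for cells at 8% to 20% (186 cells), 16 and 1 against comparison cells at 3.0% to 3.5%, 120 and 73 at 3000 to 6000 other UMIs, 39 and 10 with equal weight per cell, and 10 and 12 on totals with MT- genes. There were 375 and 119 at a floor of 5 CPM, 9011 and 1281 with no floor but 1 UMI, 2 and 0 at 2-fold, and 3 and 0 at 50 CPM; at 50 CPM and 3000 to 6000 UMIs there were 7 and 9. In hPSC, against 49 and 5, there were 110 and 19 at 3000 to 6000 UMIs and 7 and 1 at 50 CPM. Counts were larger where fewer UMIs stood behind each gene; the cause was not tested.

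The median of complex I was -0.018 at 8% to 20% and -0.13 on totals with MT- genes, that of mitochondrial ribosomal proteins -0.14 on such totals, and that of G2 and M phase genes -0.10 at 3000 to 6000 UMIs and -0.24 on such totals. The p53 median was 0.065 at 8% to 20% and 0.060 against 3.0% to 3.5%. MT-ATP6 per MT-CO1 was 1.32 times as high against 3.0% to 3.5%. For these the cause was not tested. Of the 31 genes past 1.5-fold at 20 CPM, 19 were still past it at 3000 to 6000 UMIs, 9 against 3.0% to 3.5% and 22 at 8% to 20%, and none took the other sign under the settings for cells, weights and totals. Of 11 list members past 1.5-fold, NUSAP1 took the other sign at 3000 to 6000 UMIs, and NUSAP1 and TIGAR at 8% to 20%. Of 314 alternative medians over 45 lists, 252 stayed within the rank-based interval of the list's median, 62 did not and 41 took the other sign. Of 1883 values over 269 genes, 1648 stayed within the gene's counting interval, 235 did not and 132 took the other sign. Of 33 guide shares at a minimum of 10 amplicon UMIs, 1 moved, GNL2, to 0 of 59 cells.

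The length difference given below was 0.037 against comparison cells at 3.0% to 3.5% and 0.094 at 3000 to 6000 UMIs, against 0.13. Alternatives with 50 CPM, without nuclear copies of MT- genes, and those for MT-ATP6 and gene length were chosen after seeing the data. Depth limits genes under 20 CPM, which have few UMIs in 921 cells, and targets with fewer than 50 cells.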

Other observations

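Among protein-coding genes at 50 CPM or more, the log2 ratio of high-MT over comparison cells was ordered by the exon length of the gene. In ectoderm the median was -0.05 in the fifth with the shortest genes (435 to 2568 bases, 596 genes), then -0.04, -0.01 and 0.04, and 0.08 in the fifth with the longest (8741 to 44677 bases, 596 genes). In hPSC the medians ran -0.07, -0.05, 0.00, 0.06 and 0.12. The genes share their libraries and their depth, and this is a description across genes. Long genes with values of their own, chosen after these were seen, include INSR, the insulin receptor, with 113 CPM in high-MT cells and 82.7 CPM in comparison cells (0.45, 0.28 to 0.62), which was 0.50 at 3000 to 6000 other UMIs and 0.42 in hPSC. SORL1, a sorting receptor, had 89.5 and 66.2 CPM (0.43, 0.24 to 0.62), and 0.47 in hPSC. VCAN, the matrix proteoglycan versican, had 59.8 and 41.8 CPM (0.52, 0.28 to 0.75), but 0.03 at 3000 to 6000 other UMIs.

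Cholesterol synthesis genes had a median of 0.15 over 16 measured genes in ectoderm, with 12 above and 4 below 0 and none past 1.5-fold, and of 0.00 over 18 in hPSC. DHCR7, which makes cholesterol by reducing its precursor, had 38.5 CPM in high-MT cells and 28.7 CPM in comparison cells (0.43, 0.13 to 0.71), but 0.08 (-0.42 to 0.56) at 3000 to 6000 other UMIs, and -0.08 in hPSC. Splicing factors had a median of -0.02 over 31 genes, yet HNRNPH1 had 729 and 584 CPM (0.32, 0.26 to 0.39) and HNRNPA2B1 had 1017 and 1222 CPM (-0.26, -0.32 to -0.21). The differences between the libraries were not tested.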
